A study of Canis lupus familiaris with 3 samples.

Results

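Genes of the extracellular serine protease system were followed across the arrays of the study, 6 in all: the proteases HPN, PLAU and HTRA1 and the inhibitors SPINT1, SPINT2 and SERPINE2. They were taken as the spots whose only annotated gene symbol is one of these 6, and they amount to 14 spots of 7 cDNA clones, among 14775 spots and 5508 genes with a single symbol and a value on every array. Their human Entrez gene numbers in the annotation are 3249 for HPN, 5328 for PLAU, 5654 for HTRA1, 6692 for SPINT1, 10653 for SPINT2 and 5270 for SERPINE2. All 14 spots had a value on all arrays, so no member was lost to a filter.

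The samples are amplified RNA of MDCK, a line of dog kidney epithelium, hybridised to arrays of human cDNA clones. Transfectants carrying E47, a helix-loop-helix product of the TCF3 gene that represses E-cadherin, were compared with MDCK-CMV control cells, both grown in DMEM with 10% fetal bovine serum. There were 3 arrays of 2 colours, each with E47 RNA in 1 dye and control RNA in the other: extraction 1 with E47 in Cy5, extraction 2 with E47 in Cy3, and extraction 2 with E47 in Cy5. Values of extraction 2 were averaged, so n = 2 extractions. Whether the transfectants are 1 clone or several, and whether the extractions come from separate cultures, is not stated in the labels.

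Values are log2 ratios with E47 in the numerator, a direction that is likely rather than stated: every sample lists the E47 cells as its first channel, and CDH1, which encodes E-cadherin, stood at −3.52, −3.83 and −3.47 on the array of extraction 1 and on the Cy3 and Cy5 arrays of extraction 2. If the deposited ratios ran the other way, every sign below would turn. TCF3 was at −0.27, −0.28 and −0.35, and it is not known whether its clones overlap the transfected cDNA. Log ratios carry no signal level, so the labelled cell type could not be checked by the presence of its markers, and fewer cells of a type cannot be told apart from less RNA per cell. The members were chosen with this contrast in view, so their values are given as a description, and no p-value is given for them.

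Serine proteases cut proteins with an active-site serine, and many are made as inactive precursors that must themselves be cleaved. Hepsin, encoded by HPN, is a transmembrane serine protease of epithelia that can activate pro-hepatocyte growth factor and pro-urokinase. The urokinase-type plasminogen activator, encoded by PLAU, is secreted, binds a receptor at the cell surface and turns plasminogen into plasmin, and HTRA1 is a secreted serine protease that cleaves matrix proteins. SPINT1 and SPINT2 encode the hepatocyte growth factor activator inhibitors HAI-1 and HAI-2, Kunitz-type transmembrane inhibitors of hepsin and of its relative matriptase. SERPINE2 encodes protease nexin-1, a secreted serpin that traps urokinase, thrombin and plasmin. HTRA1 and SERPINE2 are secreted proteins, so the surface location fits only some of the 6.

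Among the proteases, the membrane-bound and plasminogen-activating enzymes had lower ratios and the matrix protease a higher one. HPN, measured by 1 clone, was at −1.77 in extraction 1 and at −1.01 and −1.16 in extraction 2 with E47 in Cy3 and Cy5. It was below 0 everywhere, but farther from 0 in extraction 1 than on either array of extraction 2. Its mean log2 ratio was −1.43 ± 0.49 (SD, n = 2 extractions), 2.69-fold lower in E47 cells. The gap of 0.69 between the extractions was larger than that of 97.1% of all named genes, while the gap of 0.15 between the dye orientations was below the median of 0.17.

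PLAU, also from 1 clone, gave −1.34 in extraction 1 and −0.76 and −1.13 in extraction 2 with E47 in Cy3 and Cy5. The Cy3 array lay nearest to 0 and the 2 Cy5 arrays close to each other. The mean was −1.14 ± 0.28 (SD, n = 2), 2.21-fold lower in E47 cells. HTRA1 stood at 2.13 in extraction 1 and at 2.35 and 1.63 in extraction 2 with E47 in Cy3 and Cy5. All its spots were above 1.6, with the Cy5 array of extraction 2 the lowest. Its mean of 2.06 ± 0.10 (SD, n = 2), a ratio of 4.16-fold, placed it at rank 16 from the highest of 5508 named genes. The dye orientations differed by 0.72, more than in 97.0% of named genes, and the SD leaves out that spread.

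**Figure D1:**
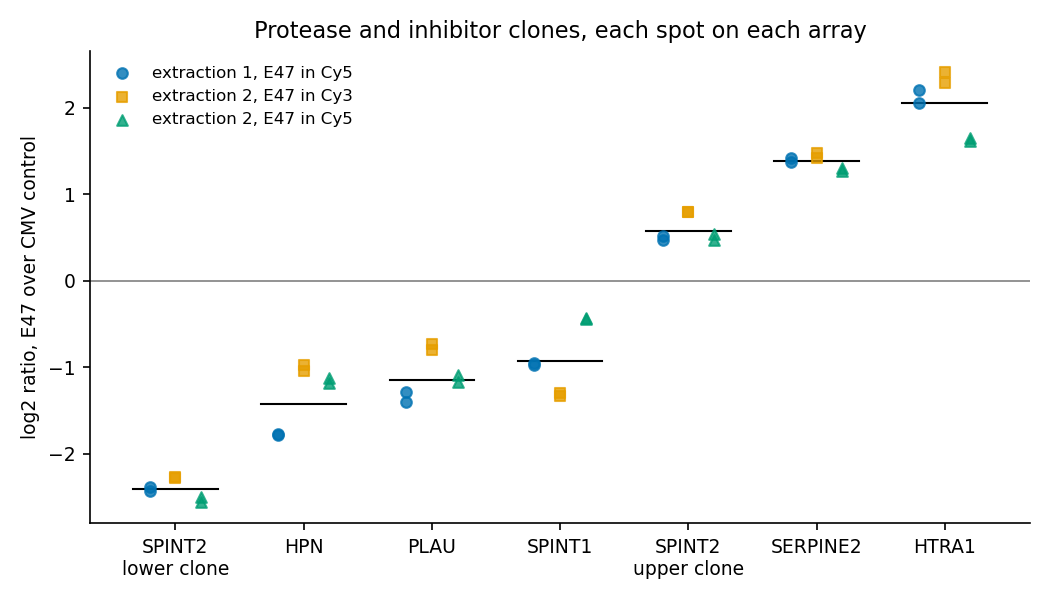
Log2 ratio of E47 over CMV control (vertical axis) for each duplicate spot of the 7 clones, ordered by mean. Circles are extraction 1, squares extraction 2 with E47 in Cy3 and triangles extraction 2 with E47 in Cy5, and black lines are the means over 2 extractions. Duplicate spots nearly coincide, and the SPINT2 clones lie on opposite sides of 0, at −2.40 and 0.57.

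The transmembrane Kunitz inhibitors were below 0 at the gene level. SPINT1, from 1 clone, was at −0.97 in extraction 1, and at −1.31 and −0.44 in extraction 2 with E47 in Cy3 and Cy5. The dye orientations differed by 0.87, more than in 98.1% of named genes. Extraction 1 lay 0.09 from the mean of extraction 2, less than the median gap of 0.13. Extraction 1 has E47 in Cy5 only, so that gap mixes extraction with dye. On the Cy5 arrays alone the extractions stood at −0.97 and −0.44. The mean was −0.92 ± 0.06 (SD, n = 2), 1.89-fold lower in E47 cells, and this SD leaves out the spread between the dye orientations. On the array with E47 in Cy5 of extraction 2, 12.3% of named genes were lower than SPINT1, against 0.708% on the Cy3 array.

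SPINT2 was the only member with 2 clones, and they had opposite signs. The lower clone, on spots 22955 and 22956, gave −2.41 in extraction 1 and −2.27 and −2.52 on the Cy3 and Cy5 arrays of extraction 2, with a mean of −2.40 ± 0.01 (SD, n = 2), 5.29-fold lower in E47 cells. The upper clone, on spots 24379 and 24380, gave 0.49, 0.80 and 0.50 in the same order, with a mean of 0.57 ± 0.11 (SD, n = 2), 1.49-fold higher. Each clone was steady across the arrays, and no array brought them together. The gene mean of −0.92 ± 0.06 (SD, n = 2) is therefore a value that neither clone showed. Which of the clones reads the SPINT2 transcript of the dog was not tested.

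Clones of 1 gene often disagreed on these arrays, though rarely this far. Of 1040 named genes with several clones, 401 (38.6%) had clones of opposite sign, and the median gap between the lowest and the highest clone was 0.27 on the log2 scale. The SPINT2 gap was 2.97, and 6 of the 1040 genes had a larger one. In 24 genes, SPINT2 included, a clone was at least 2-fold lower while another was above 0. The other 5 members rest on a single clone each, so the same comparison could not be made for them.

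**Figure D2:**
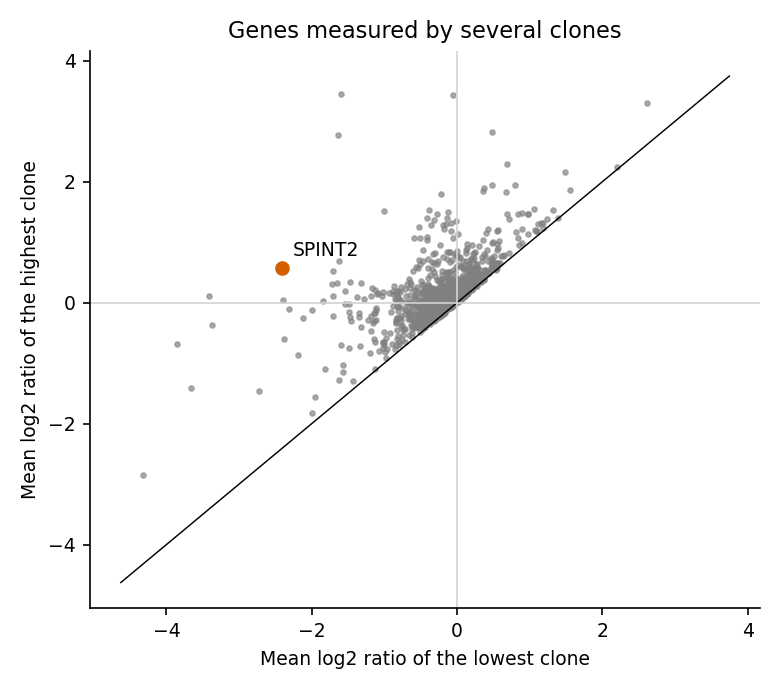
Mean log2 ratio of the highest clone (vertical axis) against that of the lowest clone (horizontal axis) for the 1040 named genes with several clones, each a grey point. The black line marks equal values. SPINT2, in orange, lies where the clones have opposite signs, with a gap of 2.97 against a median of 0.27.

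The serpin of the set had a ratio above 0. SERPINE2, from 1 clone, was at 1.39 in extraction 1 and at 1.45 and 1.29 in extraction 2 with E47 in Cy3 and Cy5. Its arrays were the closest together among the 7 clones, within 0.16, and the extractions differed by 0.03. The mean was 1.38 ± 0.02 (SD, n = 2), 2.60-fold higher in E47 cells, and placed SERPINE2 at rank 51 from the highest. Its target protease PLAU was on the other side of 0: the log2 ratio of SERPINE2 exceeded that of PLAU by 2.73 in extraction 1, and by 2.21 and 2.41 in extraction 2 with E47 in Cy3 and Cy5.

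For hepsin and its Kunitz inhibitors the order was less even. The log2 ratio of HPN was below that of SPINT1 by a difference of −0.81 in extraction 1 and of −0.72 on the Cy5 array of extraction 2, and above it by 0.31 on the Cy3 array. Ordered by mean, HPN, PLAU, SPINT1 and SPINT2 stood at −1.43, −1.14, −0.92 and −0.92, and SERPINE2 and HTRA1 at 1.38 and 2.06. The neighbours HPN and PLAU differed by −0.28, less than the SD of HPN. The means of SPINT1 and SPINT2 differed by −0.01, but by −0.58 and 0.57 on the Cy3 and Cy5 arrays of extraction 2. PLAU and SPINT1 also changed places between the dye orientations. SERPINE2 was below HTRA1 on every array, by differences of −0.73, −0.90 and −0.34.

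**Figure D3:**
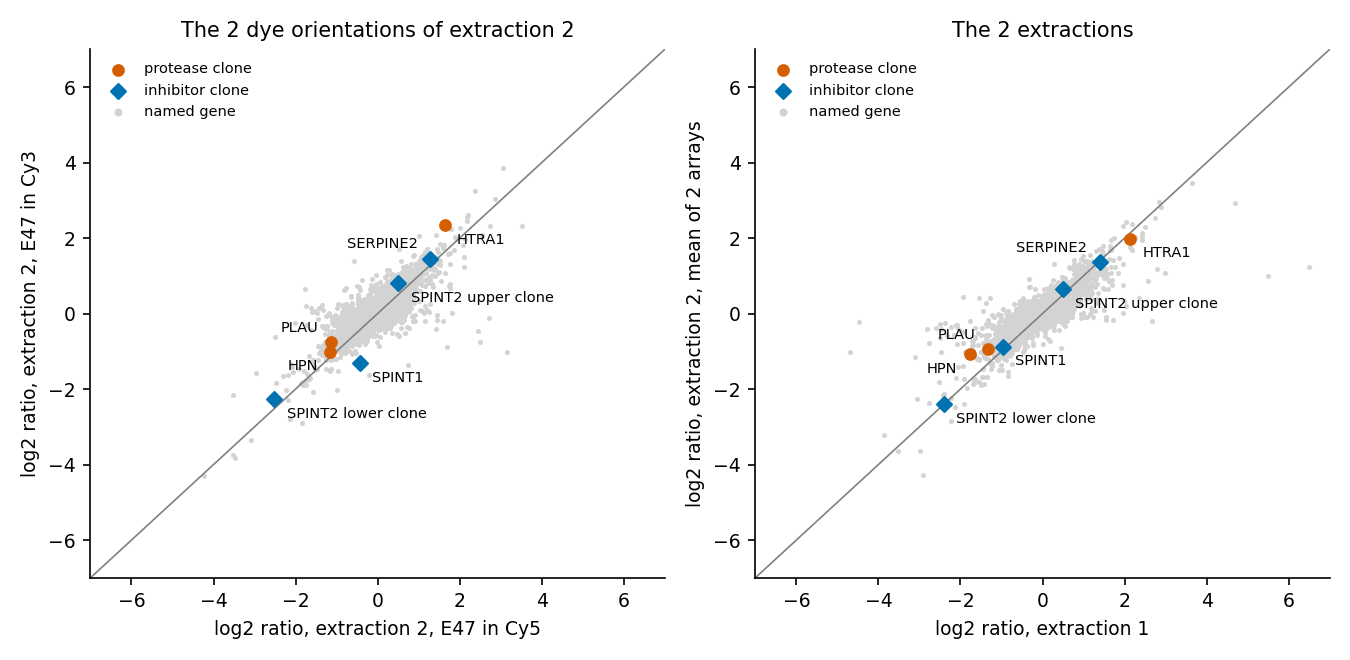
Left, log2 ratio of extraction 2 with E47 in Cy3 (vertical) against E47 in Cy5 (horizontal). Right, mean log2 ratio of extraction 2 (vertical) against extraction 1 (horizontal). Grey points are named genes, circles protease clones, diamonds inhibitor clones and the line marks equal values. SPINT1 lies 0.87 off in the left panel, HTRA1 0.72, and HPN 0.69 off in the right panel.

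The spread within an array was small beside these differences. Over the 3 arrays, the largest gap between duplicate spots ran from 0.04 for SPINT1 to 0.15 for HTRA1, against a median of 0.09 over 5372 clones with 2 spots. The range of a clone over the arrays was larger. The widest were 0.87 for SPINT1, 0.77 for HPN and 0.72 for HTRA1. The sign of every spot was the same on all arrays for all 7 clones, in both dye orientations of extraction 2. Extraction 1 has no dye swap, so a dye effect cannot be told apart from the ratio there.

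Within the distribution of all named genes the members stood in the tails. The mean log2 ratio of HPN had 0.763% of named genes below it, that of PLAU 1.60%, that of SPINT1 2.67% and that of SPINT2 2.71%. SERPINE2 had 99.1% and HTRA1 99.7% of named genes below it. In the limma fit over all features every one of the 6 had an adjusted p under 0.05, with 2 above and 4 below a log2 ratio of 0, which the choice of members fixed. Of all named genes 9.19% passed, 5.34% higher and 3.85% lower, and this split turned to 448 higher and 471 lower genes when the Cy3 array of extraction 2 was left out. All 6 had the same sign on every array, as 63.3% of named genes did. For SPINT2 every value in this paragraph is that of a mean over clones of opposite sign. HPN, SERPINE2 and HTRA1 were at least 2-fold from 0 on every array, as 2.21% of named genes were, 1.36% on the higher side and 0.853% on the lower. PLAU, SPINT1 and SPINT2 fell short of 2-fold on some array. Read as natural logarithms, 5 of the 6 would be at least 2-fold from 0 on every array, all but SPINT1. Since the genes were chosen from this contrast, these counts describe the choice and carry no evidence.

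**Figure D4:**
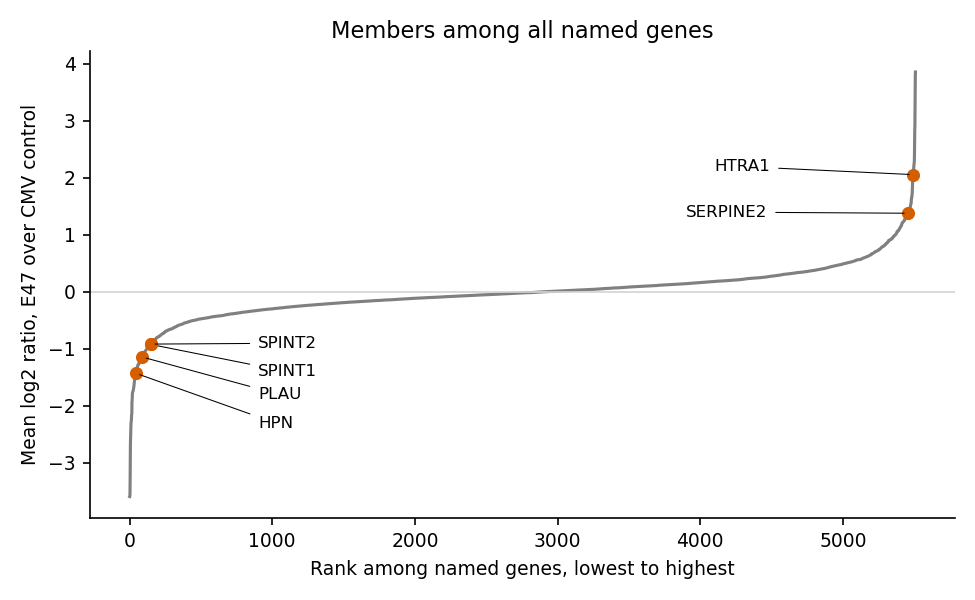
Mean log2 ratio of E47 over CMV control (vertical axis) of the 5508 named genes in order from lowest to highest (horizontal axis, rank), drawn as a grey line with the 6 members in orange. HPN, PLAU, SPINT1 and SPINT2 lie on the steep lower end and SERPINE2 and HTRA1 on the upper end.

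Outside the members, other genes of serine proteases and their inhibitors mostly stayed near 0. Of 131 symbols in 4 lists of such genes, 43 were on the array and 40 were tested. Of these 40, 1 fell, none rose and 39 did not pass in limma (adjusted p under 0.05), that is 2.50% against 9.19% of all named genes. Their median log2 ratio was 9.68e-04, against −0.02 over all named genes. At an unadjusted p under 0.05, 11 of the 40 passed, against 1963 of the 5508 named genes. The lists were drawn up with earlier results of these data known. The 6 members, which all passed, were left out of them, so the 2.50% is not the share of the whole family.

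The gene that fell was DPP4, in the list of membrane serine proteases. It encodes dipeptidyl peptidase 4, a transmembrane serine exopeptidase that trims dipeptides from chemokines and incretins. Its log2 ratio was −1.70 in extraction 1 and −1.85 and −1.87 in extraction 2 with E47 in Cy3 and Cy5, below the ratio of HPN on the 2 arrays of extraction 2 and above it in extraction 1. The mean was −1.78 ± 0.09 (moderated SE, n = 2), a 3.43-fold lower level in E47 cells, and limma gave it an adjusted p of 0.0194. The other 4 of 5 membrane proteases tested did not pass. The list median was −0.28, and the arrays all lay below 0 for 4 of the 5.

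Among 17 secreted serine proteases tested, none passed and the median was 0.05. The values farthest from 0 were −0.34 for KLK3, with an adjusted p of 0.132, and 0.24 for PRTN3, at 0.278. The dog gene table holds neither symbol, and related dog transcripts may bind such clones. Of 13 serpins besides SERPINE2, none passed, with a median of −0.01. SERPINA1, with a mean of −0.35, had a clone at −1.54 and its other clones between −0.09 and −0.03. SERPINA4, the kallikrein inhibitor kallistatin, was at −0.47 with an adjusted p of 0.0603, and SERPINH1, a collagen chaperone without protease inhibition, at 0.43 with 0.0771. Both passed when named genes were tested alone, at 0.0274 and 0.0367. In the list of Kunitz, Kazal, WAP and other inhibitors 5 genes were tested and none passed, with a median of 0.28. TFPI, the tissue factor pathway inhibitor, was at 1.27 in extraction 1 and −0.52 and 0.66 in extraction 2, and its mean of 0.67 had an adjusted p of 0.238. Its clones were at −0.02 and 1.36, so the mean is a value that neither showed. SPINK1, a trypsin inhibitor, was at 0.43 with an adjusted p of 0.121.

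Of 32 symbols in a list of receptors, cofactors and substrates of the system 21 were tested, and 4 fell, 3 rose and 14 did not pass, with a median of 0.15. That is 33.3% against 9.19% of all named genes, a difference that was not tested. This list too was drawn up with earlier results of these data known. It holds CDH1, on which the direction of the ratios partly rests. CDH1, the adhesion protein E-cadherin, and EPCAM, an epithelial adhesion molecule cleaved by matriptase, were at −3.59 ± 0.09 and −2.54 ± 0.18 (moderated SE, n = 2), and their adjusted p-values were 0.0194 and 0.0201. With incomplete spots kept, CDH1 was at −2.66. The clones were at −2.84 and −4.33 for CDH1 and at −1.41 and −3.66 for EPCAM, all below 0. EPCAM was at −2.16 and −3.52 on the Cy3 and Cy5 arrays of extraction 2, a spread that the SE leaves out. F3, tissue factor, which starts coagulation as the cofactor of a serine protease, was at −2.97 in extraction 1 and at −3.75 and −3.53 in extraction 2. Its mean was −3.31 ± 0.19 (moderated SE, n = 2), a 9.90-fold lower level in E47 cells, and its adjusted p was 0.0194. MST1R, the receptor of a ligand that hepsin can activate, was at −1.04 with an adjusted p of 0.0369. Its clones were at −1.72 and 0.31, so its call rests on a mean of opposite values. When the Cy5 array of extraction 2 was left out its adjusted p was 0.124.

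The genes that rose were ITGAV, an integrin subunit that associates with the urokinase receptor, ENO1, a glycolytic enzyme that also binds plasminogen at the surface, and VLDLR, an endocytic receptor that clears complexes of serpins and proteases. ITGAV was at 1.22 ± 0.12 and ENO1 at 1.06 ± 0.12 (moderated SE, n = 2), and their adjusted p-values were 0.0263 and 0.0311. VLDLR, named with its value in view, stood at 0.75 (adjusted p 0.0334). When the Cy5 array of extraction 2 was left out none of the 21 rose, and ITGAV and ENO1 had adjusted p-values of 0.0811 and 0.0716.

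Other partners of the members, picked after their values were seen, did not pass. ST14, which encodes matriptase, the protease restrained by SPINT1, was at −0.24 in extraction 1 and −0.18 and −0.12 in extraction 2 with E47 in Cy3 and Cy5, with a mean of −0.20 and an adjusted p of 0.211. PLAUR, the urokinase receptor, was at 0.18 with an adjusted p of 0.231. Its clones were at −0.02 and 0.37, and the dog gene table does not hold its symbol. PLAT, the other plasminogen activator, was at 0.12 with 0.393, from clones at −0.03 and 0.28. HGF, the growth factor that hepsin and matriptase can activate, was at 0.16 with 0.267, and its receptor MET at −0.32 with 0.110. A p above the threshold does not show that these genes were equal in both cell types.

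**Figure D5:**
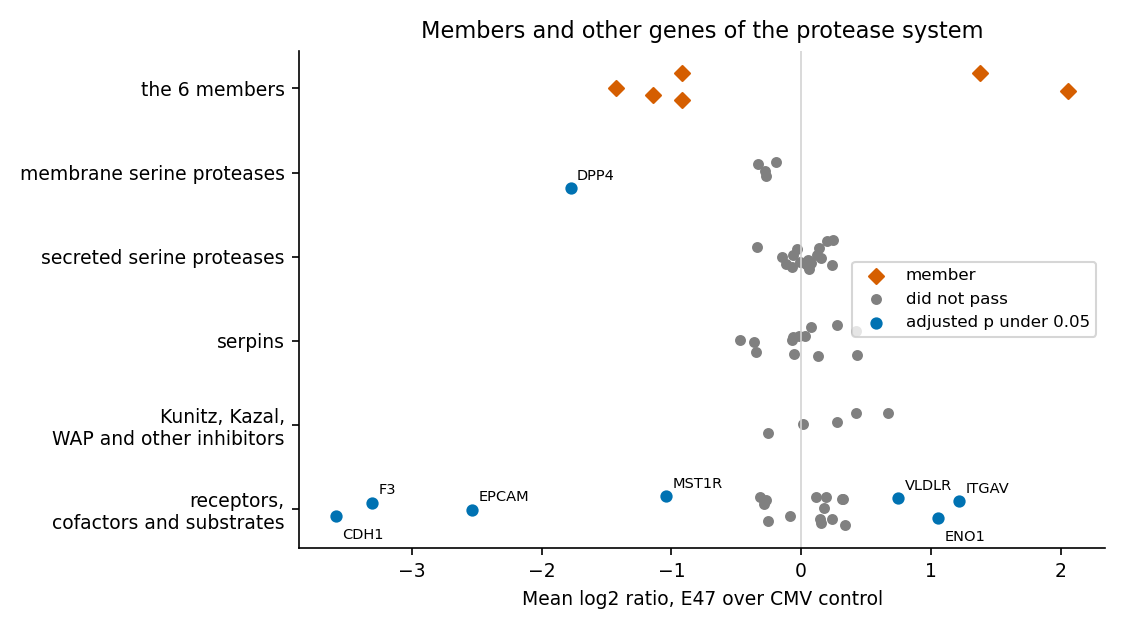
Mean log2 ratio of E47 over CMV control (horizontal axis) of the 6 members, as orange diamonds, and of the genes tested in 5 lists (rows). Blue points had a limma adjusted p under 0.05 and grey points did not. DPP4 is the only blue point among the 40 other proteases and inhibitors, and 7 of the 21 receptors, cofactors and substrates are blue.

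The nearest named gene to each member over the 3 array values was found by Euclidean distance in log2 units. It was TOP2A for SERPINE2, at 0.03, HMGA1 for the mean of the SPINT2 clones, at 0.05, HLA-E for PLAU, at 0.09, GPC3 for HTRA1, at 0.15, RPL8 for HPN, at 0.15, and CD74 for SPINT1, at 0.30. SPINT1 was thus the member farthest from its nearest gene. The arrays share the control line and 2 of them their E47 RNA, so these distances are over 3 values that are not independent.

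Markers of leukocytes and of kidney tubule epithelium were read on the same fit. Of 7 leukocyte markers tested, PTPRC, the leukocyte common antigen, rose to 1.03 ± 0.10 (moderated SE, n = 2), measured by 1 spot, and its adjusted p was 0.0264. The other 6 did not pass and lay between −0.20 and 0.40. Of 6 kidney tubule markers, the water and glycerol channel AQP3 fell to −1.56, KRT8 fell to −0.99 and the sodium pump subunit ATP1B1 rose to 0.87, and their adjusted p-values were 0.0197, 0.0309 and 0.0269. The other 3 kidney tubule markers did not pass and lay between −0.22 and 0.13. Neither list was tested against the 9.19% of all named genes that passed. When the Cy5 array of extraction 2 was left out, KRT8 and ATP1B1 did not pass, at 0.0850 and 0.0744. The part of these markers in the ratios of the proteases and inhibitors was not tested.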

How the data were processed

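The deposited values are read as log2 ratios, made by the authors, with 1 column for each of 3 arrays. How the background was corrected, the ratios normalized, which base and which direction were used is not stated in the labels. Column medians were −0.0051, 0.0027 and 7.67e-04. Base 2 was used, since the largest value of 7.80 exceeds 4.82, the most that a log10 ratio from a 16-bit scan can reach, and the natural logarithm stays possible. All columns correlated positively, the dye swap included, so no sign was turned. The 2 Cy5 arrays had r = 0.765, above the 0.654 of the 2 arrays of extraction 2. Extraction 1 and the Cy3 array had 0.580. The platform annotation gives a single gene symbol for 17488 of 27648 spots, and 23275 of all spots had a value on every array and were used.

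Values were averaged over the spots of a gene and over the dye swap, and 14008 features (5508 named genes) were tested against 0 in limma (version 3.58.1, R 4.3.3; lmFit, then eBayes). P-values were adjusted by Benjamini-Hochberg over all features, and a feature passed at an adjusted p under 0.05. The ratio against 0 treats the control as a common reference; whether the arrays share 1 control RNA is not stated, and if they do, the control's own spread is left out. There was 1 residual degree of freedom, and eBayes added 2.71 prior degrees of freedom from the spread of all features. Each moderated SE therefore rests mostly on that pooled spread, and 8500 of the features are unaveraged spots without a single gene symbol. The p-values measure only the spread between extraction 1 and the averaged extraction 2, which may be technical. Extraction 1 has no dye swap, so part of any dye difference enters that spread. Signal over background is unknown, and the number of arrays limits the precision. The members and lists were chosen with earlier results of these data known. The genes named are the members, CDH1 and TCF3, the nearest gene to each member, and of each list up to 6 genes that passed, by size, or else the 2 farthest from 0. VLDLR, SERPINA1, ST14, PLAUR, PLAT, HGF and MET were named in addition, after their values were seen. Sequences of clones and genes were not used here.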

Additional observations from a re-analysis of the deposited data

How the results depend on the processing

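The number of named genes that passed, 506 of 5508, was 919 without the Cy3 array of extraction 2 (448 higher, 471 lower), 109 without its Cy5 array (74 higher, 35 lower) and 1175 when named genes were tested alone. The 8 of 61 genes of the 5 lists that passed became 4 without the Cy5 array and stayed between 7 and 12 in the other 8 alternatives. Read from its upper clone alone, SPINT2 turned to 0.57, and from its lower clone alone it was −2.40. Over the other 9 alternatives, single extractions included, every member kept its sign: HPN ran from −1.77 to −1.08, PLAU from −1.34 to −0.94, SPINT1 from −1.14 to −0.70, SPINT2 from −0.98 to −0.85, SERPINE2 from 1.34 to 1.42 and HTRA1 from 1.88 to 2.24. Without replicate 1 or without replicate 2 no test was possible, since 1 extraction is left. The fit of 3 arrays with extraction as a random block gave no correlation estimate and was not run. DPP4, F3, CDH1, EPCAM, AQP3 and PTPRC passed in all 9 alternatives, with adjusted p for DPP4 from 0.0075 to 0.0445. Apart from the losses given above, ENO1 and ATP1B1 lost their calls with scaled arrays, at 0.0651 and 0.0576, and MST1R with the median over spots, with clones weighted equally and with incomplete spots kept, at 0.0603, 0.0507 and 0.0502. SERPINA4 and SERPINH1 gained a call when named genes were tested alone. Read as natural logarithms, the folds of the members would lie between 2.50 and 7.83.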
